A study of Caenorhabditis elegans with 12 samples.

Results

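The 6 genes described here, nhr-49, nhr-80, nhr-13, nhr-66, mdt-15 and sbp-1, encode transcriptional regulators of fat metabolism in Caenorhabditis elegans. They were chosen by name, as nuclear receptors and cofactors known to control fat genes, and not by their values, although earlier results of these data were known. They are 6 of the 45327 genes in the deposited table and 6 of the 14352 that were abundant enough to be tested. RNA was sequenced from whole worms of 4 groups of 3 biological replicates, all grown at 25°C and collected as L4 larvae. The groups were wrn-1(gk99) worms given 10 mM vitamin C (sodium L-ascorbate) in the plates, untreated wrn-1(gk99) worms, N2 worms given 10 mM vitamin C and untreated N2 worms. N2 is the common laboratory wild type, and wrn-1(gk99) carries a deletion in wrn-1, the worm ortholog of the human Werner syndrome helicase gene. The mutant strain had been out-crossed to N2 and developed more slowly, so its animals were collected by their vulva and gonad and not by their age in hours. All animals shared the same hatching and staging procedure, and no group carried a transgene.

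Worms store most of their fat in the intestine, where these regulators act on the genes of fatty acid synthesis, desaturation and breakdown. NHR-49 is a nuclear receptor that resembles the mammalian receptors HNF4 and PPAR-alpha in sequence and role. It works with partner receptors, with NHR-80 and NHR-13 on fatty acid desaturase genes and with NHR-66 on genes of sphingolipid processing and lipid remodelling. MDT-15 is a subunit of the Mediator complex, which links transcription factors to RNA polymerase II, and it serves as a coactivator of both NHR-49 and SBP-1. SBP-1 is the worm ortholog of the mammalian SREBP factors and drives genes of fatty acid synthesis. A low supply of phosphatidylcholine is known to activate it.

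Between 13446257 and 34234211 reads fell on genes in a library, and each member rested on at least 83 reads in every library. The wrn-1 transcript was higher in the mutant, with 854, 789 and 699.9 normalized counts in wrn-1(gk99) libraries against 516, 499 and 502 in N2 libraries (log2 difference 0.62, SE 0.16, adjusted p = 0.00621 by limma). The deletion lies within the gene, so counts over the whole gene do not test the strain labels. The library labelled N2 vitC replicate 3, also called the odd N2 vitC library, stood apart from its group. Over all genes tested it correlated with the other N2 vitC libraries at 0.9598 and 0.9606, and with the wrn-1(gk99) vitC libraries at 0.9942 to 0.9964. Counts of members called, and most other results that rest on this library, are therefore given with and without it. The libraries also differed in marker genes of tissues. The summed level of 10 intestine markers was 78982 to 82075 normalized counts in the mutant libraries and 41274 to 42260 in the N2 libraries. For 10 germline markers the mutant libraries had 19196 to 19581 and the N2 libraries 12336 to 12839, and for 10 neuron markers the mutant libraries had 20377 to 20678 and the N2 libraries 28425 to 28918. With vitamin C the intestine sums ranged over 51563 to 56367 for the mutant and 37179 to 51314 for N2. Muscle markers (8 genes) summed to 249858 to 268138 in the mutant libraries and 308012 to 333754 in the N2 libraries. Epidermis and molt markers (12 genes) summed to 115772 to 120469 in the mutant libraries and 113756 to 115884 in the N2 libraries, and with vitamin C to 95313 to 117993 for the mutant and 102071 to 202156 for N2. These sums hide shifts of single genes. Between the untreated strains the median log2 difference of the 12 was 0.68 toward the mutant, with 9 positive. At a limma adjusted p under 0.01, 4 were higher and 1 lower, or 7 and 2 without N2 vitC replicate 3. No marker was at 0 in any library. In whole worms, fewer cells of a type and less RNA per cell cannot be told apart, and the part of these shifts in the results below was not tested.

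The 6 regulators differed little between the groups. A gene was taken as changed when limma, fitted to log2(normalized count + 1) over all 12 libraries, gave a Benjamini-Hochberg adjusted p under 0.01. For untreated wrn-1(gk99) against untreated N2, 2 of the 6 members passed, nhr-13 upward and nhr-80 downward, while 43.4% of all genes tested passed in either direction. The untreated groups did not overlap for 4 of the 6 members, which was the case for 75.8% of all genes. Vitamin C gave 0 calls among the members in wrn-1(gk99), where 10.3% of all genes passed, and 1 of the 6 had an unadjusted p under 0.05. There 0 of the 6 members had groups that did not overlap, against 50.7% of all genes. It gave 1 call in N2, where 12.7% of all genes passed, and 3 of the 6 members did not overlap, against 32.8% of all genes. The same test called 1 member between wrn-1(gk99) vitC and untreated N2, with 22.1% of all genes, and 4 members did not overlap, with 63.6% of all genes. Between wrn-1(gk99) vitC and N2 vitC it called 0 members and 0 of the 14352 genes, although 6016 genes and 1 member had an unadjusted p under 0.05. For that comparison edgeR also called 0 genes and DESeq2 called 323. There 0 members, and 16.3% of all genes, had groups that did not overlap. The difference between the strains in their response to vitamin C was called for 0 members, with an unadjusted p under 0.05 for 3 of them, and for 14.9% of all genes. No member had a ratio of group means of 2 or more, or 0.5 or less, in any comparison. These comparisons share groups, so their counts are not independent of each other.

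When that library was left out, the numbers of members called were 3 for wrn-1(gk99) against N2, 0 for vitamin C in wrn-1(gk99), 3 for vitamin C in N2, 3 for wrn-1(gk99) vitC against N2, 2 for wrn-1(gk99) vitC against N2 vitC and 1 for the difference in response. All genes tested then passed in 62.9%, 28.5%, 36.4%, 50.4%, 52.0% and 34.1% of cases in the same order. The 2 remaining N2 vitC libraries did not overlap untreated N2 for all 6 members, against 65.7% of all genes, and did not overlap wrn-1(gk99) vitC for 3, against 75.0% of all genes. The spread of that library enters the shared estimate of error of every comparison, so counts that do not use its values also moved.

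**Figure D1:**
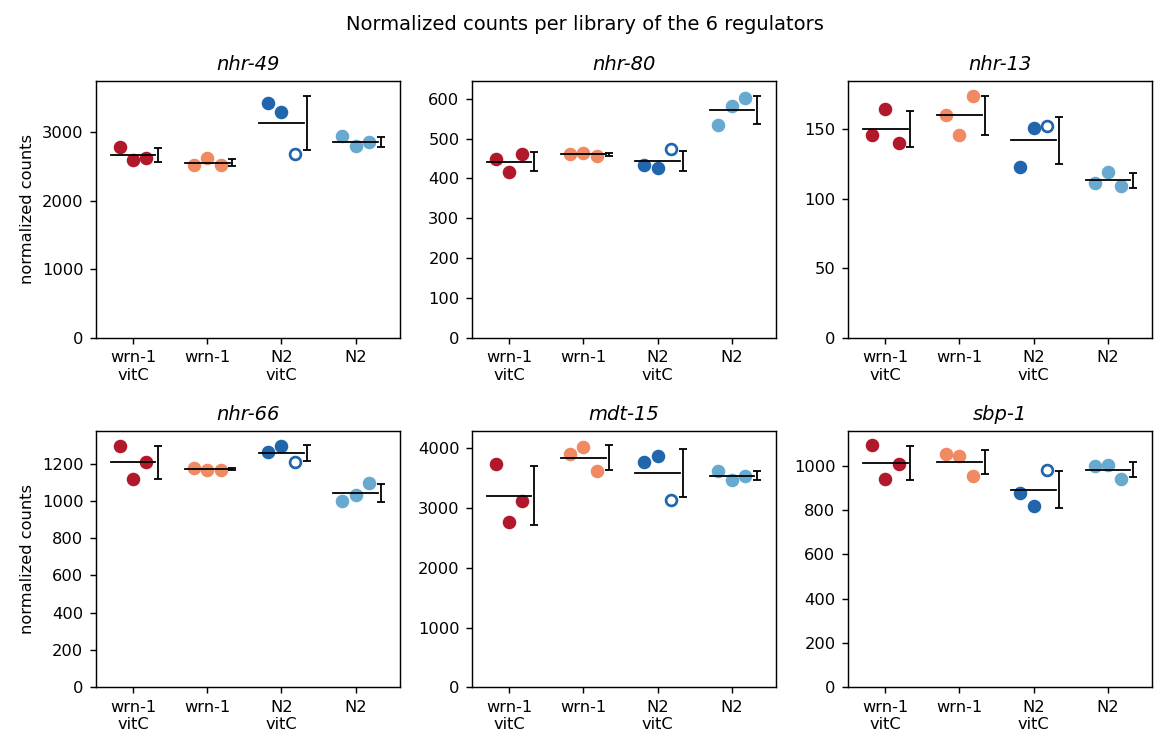
Normalized counts (y axis, starting at 0) of the 6 regulators in each of the 12 libraries, with 1 panel per gene and 1 point per library. Horizontal lines are group means, bars are SDs (n = 3) and the open point is the library labelled N2 vitC replicate 3. The untreated N2 points stand above all other libraries for nhr-80 and below them for nhr-13.

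nhr-49, the receptor at the centre of the group, had 2524, 2614 and 2515 normalized counts in untreated wrn-1(gk99) libraries, against 2938, 2791 and 2846 in untreated N2 libraries. All 3 mutant libraries lay below all 3 N2 libraries, but the gap was small, at 2551 ± 54.5 in wrn-1(gk99) and 2859 ± 74.0 in N2 (SD, n = 3 each). The log2 difference was -0.16 (SE 0.09, limma adjusted p = 0.117), and it passed without the library labelled N2 vitC replicate 3, whose removal left the difference as it was and lowered the adjusted p to 0.00462. With vitamin C, nhr-49 had 2787, 2597 and 2619 counts in wrn-1(gk99) vitC, a group that overlapped the untreated mutants (log2 difference 0.06, adjusted p = 0.674 by limma).

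The N2 vitC libraries of nhr-49 split by library. Replicates 1 and 2 had 3427 and 3291 counts, the highest of all 12 libraries, and the library labelled replicate 3 had 2680.5, within the range of the wrn-1(gk99) vitC libraries. Over the 3 libraries the log2 difference of N2 vitC from N2 was 0.12 (limma adjusted p = 0.332). Without that library it was 0.23 (adjusted p = 0.00152), and the log2 difference of wrn-1(gk99) vitC from N2 vitC was -0.33 (adjusted p = 4.5e-05) in place of -0.22 (adjusted p = 0.0789). So the direction of nhr-49 under vitamin C in N2 was the same in both fits, and whether it passed depended on 1 library.

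nhr-80, a receptor required with NHR-49 for normal expression of stearoyl-CoA desaturase genes, was lower in the mutant. It had 461, 464 and 455 normalized counts in wrn-1(gk99) libraries, against 533, 582 and 602 in N2 libraries. The groups did not overlap, and nhr-80 fell by 0.31 on the log2 scale (SE 0.08, limma adjusted p = 0.00499), a ratio of means of 0.804. When each library was left out in turn the log2 difference stayed negative, but the call was lost without wrn-1(gk99) replicate 1, 2 or 3 or without N2 replicate 2 or 3, with adjusted p between 0.0168 and 0.0230. It was also lost when libraries were scaled to equal totals, at a log2 difference of -0.15 (adjusted p = 0.166), a scaling that put the median of all genes at 0.17 in this comparison, against 0.01 with the deposited scaling. The level relative to other genes is what these data give.

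Vitamin C went with a lower nhr-80 level in N2, while no change was called in the mutant. N2 vitC libraries had 433, 427 and 473 counts, all below the lowest untreated N2 library, for a log2 difference of -0.36 (SE 0.08, limma adjusted p = 0.00587). With N2 vitC replicates 1 and 2 alone it was -0.41 (adjusted p = 0.000229). The call rested on few libraries, since it was lost in 8 of the 12 fits that left out 1 library: N2 replicate 2 or 3, N2 vitC replicate 1 or 2, any wrn-1(gk99) replicate, or wrn-1(gk99) vitC replicate 3. In these fits the log2 difference was between -0.33 and -0.36, with adjusted p between 0.0101 and 0.0286. It was also lost with equal totals (-0.26, adjusted p = 0.0504) and when only the N2 vitC and N2 groups were fitted (adjusted p = 0.0681).

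In wrn-1(gk99) vitC, nhr-80 had 449.6, 415 and 461 counts, overlapping the untreated mutants, with a log2 difference of -0.06 and a 95% confidence interval of -0.23 to 0.11. The 2 responses differed by 0.30 on the log2 scale (limma adjusted p = 0.0642), and by 0.35 without the library labelled N2 vitC replicate 3 (adjusted p = 0.00728). All libraries other than untreated N2 thus lay between 415 and 473 counts. Relative to untreated N2, the wrn-1(gk99) vitC group was lower by a log2 difference of -0.37 (limma adjusted p = 0.00367), a call lost without wrn-1(gk99) vitC replicate 1 or 2, without N2 replicate 2 or 3, and with equal totals (-0.19, adjusted p = 0.0934).

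nhr-13, the other partner of NHR-49 on desaturase genes, went the opposite way. It had 160.3, 146 and 174 normalized counts in wrn-1(gk99) libraries, against 111.5, 119.4 and 109 in N2 libraries. Every mutant library was above every N2 library, and nhr-13 was higher in wrn-1(gk99) by 0.49 on the log2 scale (SE 0.12, limma adjusted p = 0.0048), a ratio of means of 1.41. This was the least abundant member, with 83 to 284 reads per library, and its call was lost without wrn-1(gk99) replicate 1 or 3 or without N2 replicate 1 or 3, with adjusted p between 0.0167 and 0.0249.

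The N2 vitC libraries of nhr-13 had 122, 151 and 152 counts, again all above untreated N2. The log2 difference was 0.32 (SE 0.12) and did not pass (limma adjusted p = 0.0847), nor did it without the library labelled N2 vitC replicate 3 (0.26, adjusted p = 0.0888). The wrn-1(gk99) vitC libraries had 146, 165 and 139.9 counts and overlapped the untreated mutants (log2 difference -0.09, 95% confidence interval -0.36 to 0.18). The untreated N2 group was the lowest of the 4 for nhr-13, as it was the highest for nhr-80.

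nhr-66, the partner of NHR-49 on sphingolipid genes, was also lowest in untreated N2, with a smaller range. Its 1176, 1168 and 1167 normalized counts in wrn-1(gk99) libraries were all above the 999, 1029 and 1098 in N2 libraries. The log2 difference was 0.17 (SE 0.07, limma adjusted p = 0.0571) and did not pass. Equal totals gave 0.33 (adjusted p = 0.00089) and a fit to the untreated groups alone gave an adjusted p of 0.00679.

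With vitamin C, nhr-66 had 1264, 1293 and 1209.6 counts in N2 vitC, all above every untreated N2 library. This log2 difference of 0.27 (SE 0.07) fell just short of the threshold (limma adjusted p = 0.016). It passed without the library labelled N2 vitC replicate 3 (0.30, adjusted p = 0.00142), with equal upper quartiles (0.28, adjusted p = 0.009) and with DESeq2 on the recovered reads (0.27, adjusted p = 0.00529). In wrn-1(gk99) vitC it had 1296, 1119 and 1206 counts, on both sides of the untreated mutants (log2 difference 0.04, 95% confidence interval -0.11 to 0.19). A short stretch of nhr-66 exons overlaps an antisense RNA and another gene on the opposite strand in the WBcel235 annotation. The strand setting of the counting was not given in the sources used here, so reads in that stretch could belong to either.

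mdt-15, the Mediator subunit, was among the more abundant members and did not pass in any comparison with all 12 libraries. It had 3897, 4014 and 3614 normalized counts in wrn-1(gk99) libraries, against 3618, 3468 and 3537 in N2 libraries. Replicate 3 of the mutant fell inside the N2 range, and the log2 difference was 0.12 with a 95% confidence interval of -0.12 to 0.35 (limma adjusted p = 0.375). With vitamin C its replicates spread widely, at 3733, 2769 and 3117 counts in wrn-1(gk99) vitC, where replicate 1 lay inside the untreated mutant range and the other two below it.

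The log2 difference of mdt-15 between wrn-1(gk99) vitC and untreated wrn-1(gk99) was -0.27 (SE 0.11, limma adjusted p = 0.112). In N2 vitC it had 3774, 3859.7 and 3124 counts, where the first 2 libraries were above untreated N2 and the library labelled replicate 3 was below it. The log2 difference there was 0.01 (95% confidence interval -0.23 to 0.25), and 0.11 without that library (adjusted p = 0.341). The responses of the strains differed by -0.28 on the log2 scale (limma adjusted p = 0.207), or by -0.38 without it (adjusted p = 0.0184). Short stretches of the mdt-15 and sbp-1 exons also overlap neighbouring genes in WBcel235.

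sbp-1, the SREBP ortholog, was the member with the smallest difference between the untreated strains. It had 1050.2, 1044 and 952 normalized counts in wrn-1(gk99) libraries, against 997, 1004 and 941 in N2 libraries. The ranges overlapped, with a log2 difference of 0.05 and a 95% confidence interval of -0.14 to 0.24 (limma adjusted p = 0.631). The wrn-1(gk99) vitC libraries had 1091, 937 and 1006 counts, on both sides of the untreated mutants (log2 difference -0.01, 95% confidence interval -0.19 to 0.18).

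In N2 vitC, sbp-1 had 876, 818 and 979.7 counts, with replicates 1 and 2 below every other library. Over the 3 libraries the log2 difference from N2 was -0.14 (limma adjusted p = 0.268), and without the library labelled replicate 3 it was -0.21 (adjusted p = 0.0228). The log2 difference of wrn-1(gk99) vitC from N2 vitC was 0.18 (adjusted p = 0.124), and 0.25 without that library (adjusted p = 0.0059). In these 2 N2 vitC libraries sbp-1 was at its lowest where nhr-49 was at its highest.

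**Figure D2:**
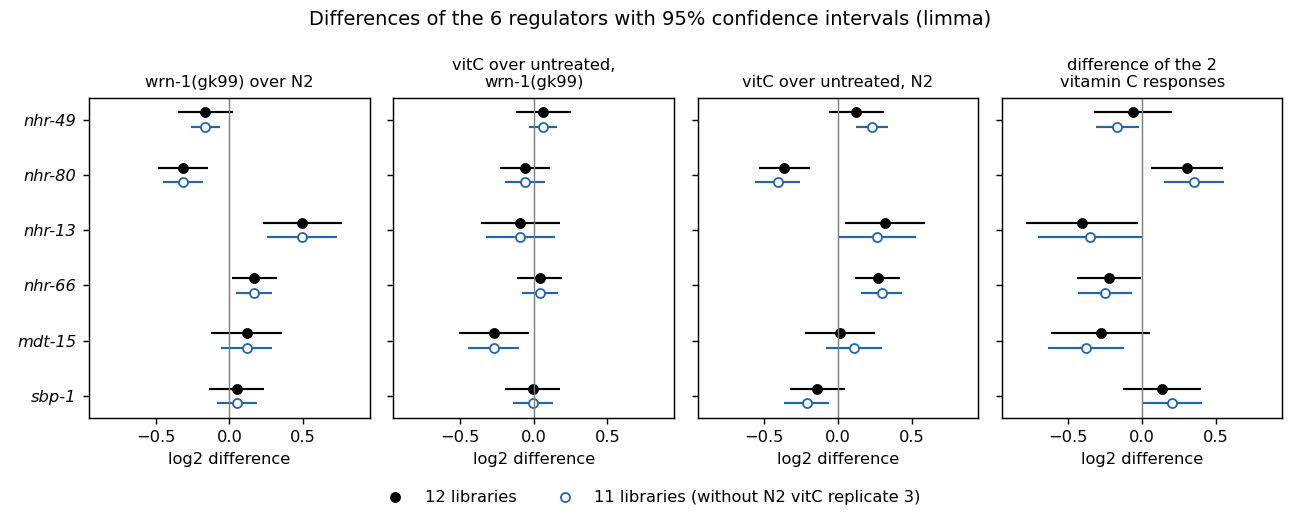
Log2 differences (x axis) of the 6 regulators in 4 contrasts, with 95% confidence intervals from limma. Filled points use 12 libraries and open points the 11 libraries without N2 vitC replicate 3. The intervals of nhr-80 lie below 0 and those of nhr-13 above 0 for wrn-1(gk99) over N2, while for vitamin C in wrn-1(gk99) all intervals but that of mdt-15 include 0.

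Between genes, levels were compared per kb of exon, with lengths from the WBcel235 annotation. nhr-49 was the highest in every library, with a mean of 1314 normalized counts per kb, and mdt-15 followed in every library with 828. sbp-1 (287), nhr-80 (262) and nhr-66 (242) formed a middle group whose order changed between libraries, and nhr-13 was the lowest throughout with 99.7. In untreated N2, nhr-80 (312 ± 19.3 per kb, SD, n = 3) overlapped sbp-1 (289 ± 10.1) and stood above nhr-66 (216 ± 10.5). In N2 vitC nhr-66 (259.9 ± 8.78) was above nhr-80 (242 ± 13.6) by means, with overlap only through the library labelled replicate 3. Among 207 tested genes of the nhr family with a length, nhr-49 ranked 3, nhr-80 ranked 29, nhr-66 ranked 35 and nhr-13 ranked 107 by level per kb.

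The members were steady by the standard of the table. The ratio of the highest to the lowest library was 1.36 for nhr-49, 1.45 for nhr-80, 1.60 for nhr-13, 1.30 for nhr-66, 1.45 for mdt-15 and 1.33 for sbp-1. Its median was 1.69 over the 9855 genes whose mean reached the level the study asked of a changed gene, so all 6 members varied less than the median gene. As a description over the 12 libraries, which share their groups and their depth, nhr-80 ran against nhr-13 (Pearson r = -0.75) and nhr-66 (r = -0.71), and nhr-49 ran against sbp-1 (r = -0.68). mdt-15 had no correlation beyond 0.33 with any other member.

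**Figure D3:**
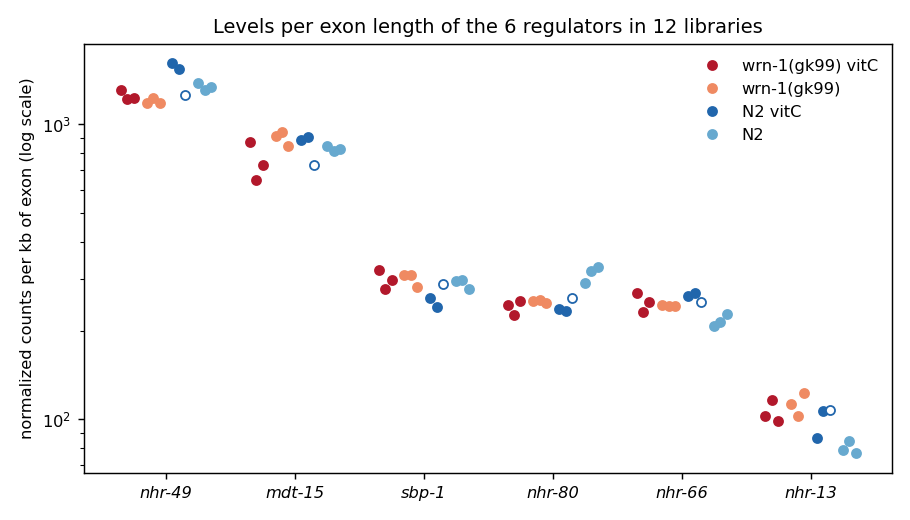
Level per kb of exon (y axis, log scale, normalized counts per kb) of the 6 regulators, with 1 point per library in the colours of the 4 groups and the library labelled N2 vitC replicate 3 open. nhr-49 and mdt-15 stand above the other members in all 12 libraries and nhr-13 below them, while sbp-1, nhr-80 and nhr-66 share a range.

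The genes whose profiles over the 12 libraries were most like each member, among those 9855 genes, were found by Pearson r of log2(normalized count + 1). For nhr-49 they were R07E3.7 (r = 0.982) and ctbp-1 (r = 0.978), which encodes a transcriptional corepressor. For nhr-80 they were T28C12.6 (0.952) and dnj-25 (0.950), and for nhr-13 they were fkb-8 (0.949) and F33H2.3 (0.933). For nhr-66 they were tfg-1 (0.948) and D1005.1 (0.935). WBcel235 names D1005.1 acly-1, an ATP citrate lyase gene whose enzyme makes acetyl-CoA for fatty acid synthesis. For mdt-15 they were F53C11.5 (0.964) and sca-1 (0.954), the calcium pump of the endoplasmic reticulum, and for sbp-1 they were dhs-13 (0.928) and cid-1 (0.914). Such values are picked as the highest of many genes, and they were between 0.923 and 0.983 over the 11 other libraries when N2 vitC replicate 3 was left out.

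Lists of fat metabolism genes had positive medians in the mutant. Some lists share genes, as the NHR-49 targets do with the desaturases and beta-oxidation, so the medians are not independent of each other. In untreated wrn-1(gk99) relative to untreated N2, the median log2 difference was 0.83 over 4 tested genes of fatty acid synthesis, of which 3 rose and 0 fell, or 4 and 0 without the odd N2 vitC library. It was 0.39 over 6 desaturases (4 rose, 1 fell, or 4 and 2 without the odd N2 vitC library), 0.33 over 8 elongases (5 rose, 2 fell) and 0.57 over 8 known NHR-49 targets (3 rose, 2 fell, or 4 and 3 without it). For 23 genes of beta-oxidation and fatty acid activation it was 0.24 (10 rose, 4 fell, or 13 and 5 without it), for 21 sphingolipid genes 0.12 (9 rose, 3 fell, or 10 and 6 without it), and for 12 genes of the methionine cycle and phosphatidylcholine synthesis 0.17 (4 rose, 3 fell, or 6 and 3 without it). The median over the 6 regulators was 0.08, and that of all 14352 genes tested was 0.01, with 2922 that rose and 3304 that fell. In the same comparison the intestine markers had a median of 0.76 (6 rose, 1 fell, or 7 and 1 without the odd N2 vitC library) and the germline markers 0.64. The neuron and muscle markers had medians of -0.48 and -0.25. The part of these tissue shifts in the list medians was not tested.

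Other regulators showed medians near that of all genes. Among 27 genes listed as Mediator subunits beside mdt-15, 3 rose, 2 fell and the median was 0.01, and without the odd N2 vitC library 6 rose and 3 fell. The list holds mdt-28, which WBcel235 names plin-1, a perilipin of lipid droplets and no Mediator subunit. Among 9 genes that act on SBP-1, 1 rose, or 2 without the odd N2 vitC library, and the median was 0.03. Among 24 other regulators of fat metabolism, 4 rose, 5 fell (5 and 7 without that library) and the median was 0.02, and the one change of at least 2-fold above the level the study asked for was nhr-25, a receptor of epidermal development and molting (log2 difference 1.32, limma adjusted p = 1.5e-07). Among 16 genes of fat storage and lipolysis, 5 rose and 6 fell.

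**Figure D4:**
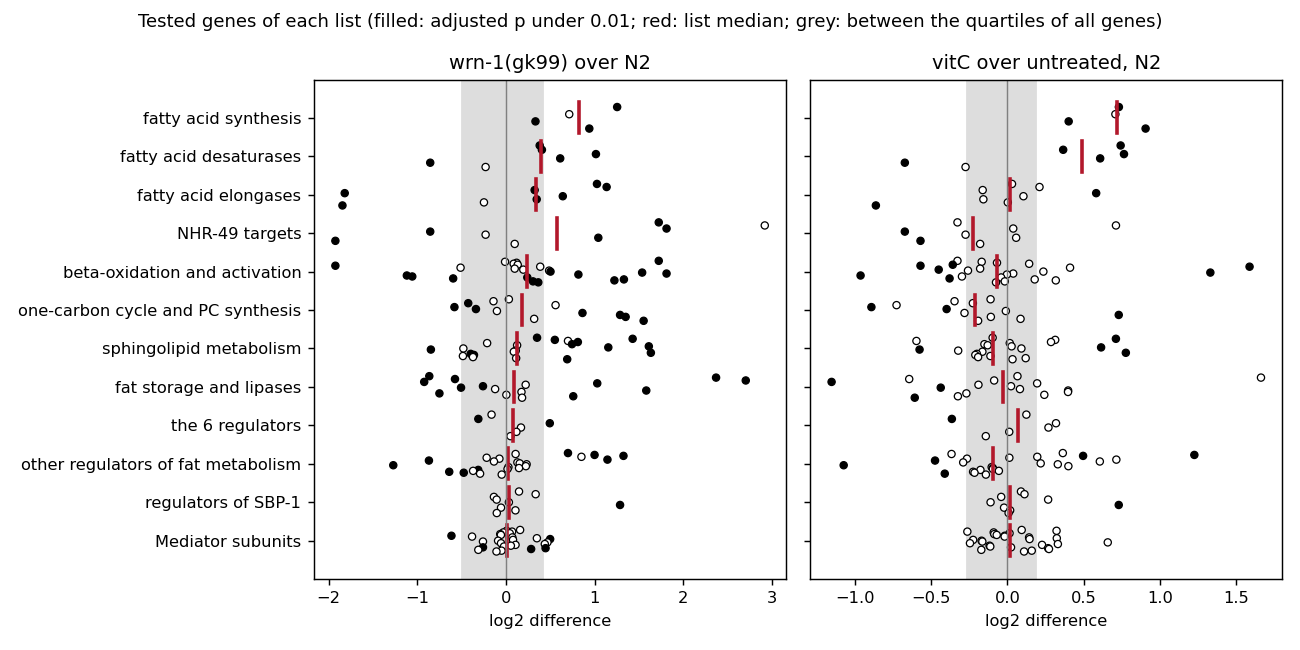
Log2 differences (x axis) of every tested gene of 12 lists, for wrn-1(gk99) over N2 and for vitamin C in N2, with filled points at an adjusted p under 0.01, red lines at list medians and a grey band over the range between the quartiles of all genes. The medians of synthesis and desaturation lie right of 0 in both panels, with fat-5 and fat-6 left of 0, and the medians of the 6 regulators and the Mediator subunits lie near 0.

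acs-2, an acyl-CoA synthetase gene for which NHR-49 is known to be required on fasting, had 1986, 1938 and 1956 normalized counts in wrn-1(gk99) libraries, against 619, 553 and 611 in N2 libraries. The groups were far apart (log2 difference 1.72, SE 0.35, limma adjusted p = 0.00133). The NHR-49 targets hacd-1, a hydroxyacyl-CoA dehydrogenase gene, and icl-1, the glyoxylate cycle gene, also rose by 1.81 and 1.04 on the log2 scale, whereas cpt-5, a carnitine palmitoyltransferase gene, fell by 1.93. The flavin monooxygenase gene fmo-2 averaged 193 counts in wrn-1(gk99) and 26.02 in N2, and its log2 difference of 2.92 did not pass (limma adjusted p = 0.0129), but did when the N2 vitC library labelled replicate 3 was left out (adjusted p = 1.6e-07). Members of this target list therefore moved in both directions.

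The acs-2 level in N2 vitC again split by library, with 314, 316 and 1065 counts, the last from the library labelled replicate 3. In wrn-1(gk99) vitC it had 1118, 1025 and 1012 counts, below every untreated mutant library and above every untreated N2 library. The log2 difference of wrn-1(gk99) vitC from wrn-1(gk99) was -0.90 (limma adjusted p = 0.0985), and the adjusted p was 9.5e-09 without that library. The log2 difference of N2 vitC from N2 was -0.33 (adjusted p = 0.546) over 3 libraries and -0.91 (adjusted p = 2.1e-08) over 2.

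NHR-49, NHR-80 and NHR-13 are known to control the stearoyl-CoA and palmitoyl-CoA desaturase genes. fat-5, the palmitoyl-CoA desaturase, had 1449, 1488 and 1538 counts in wrn-1(gk99) libraries, against 2638, 2667 and 2796 in N2 libraries, and fell by 0.86 on the log2 scale (limma adjusted p = 0.000313). fat-6, a stearoyl-CoA desaturase, averaged 9741 ± 419 counts in wrn-1(gk99) and 11441 ± 722 in N2 (SD, n = 3 each). Its log2 difference of -0.23 did not pass (limma adjusted p = 0.0876), but did without the library labelled N2 vitC replicate 3 (adjusted p = 0.00186). fat-7, a near-identical copy of fat-6, was listed at 0 in all 12 libraries, so reads shared by the copies may not be divided between them and the fat-6 values are uncertain. The other desaturases, fat-1 to fat-4, which take part in making polyunsaturated fatty acids, rose, and fat-3 did so by 1.01 (limma adjusted p = 2.7e-07).

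The vitamin C differences of fat-5 had opposite signs in the 2 strains. The counts were 2203, 2218 and 2196 in wrn-1(gk99) vitC, above every untreated mutant library, and 1383, 1541 and 2283 in N2 vitC, below every untreated N2 library. The log2 difference was 0.56 in the mutant (limma adjusted p = 0.0146) and -0.67 in N2 (adjusted p = 0.00477), where it was -0.89 without the odd N2 vitC library. The responses differed by 1.24 (adjusted p = 0.000787), or by 1.45 without the library labelled N2 vitC replicate 3.

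SBP-1 is known to drive pod-2 and fasn-1 in fatty acid synthesis. pod-2, which encodes acetyl-CoA carboxylase, rose in the mutant and had 13228, 13042 and 12462 counts in wrn-1(gk99) libraries, against 5497, 5512 and 5243 in N2 libraries (log2 difference 1.25, SE 0.16, limma adjusted p = 5.5e-05). fasn-1, the fatty acid synthase, averaged 18277 ± 1519 counts in wrn-1(gk99) and 11162 ± 1026 in N2 (SD, n = 3 each), and its log2 difference of 0.71 did not pass (limma adjusted p = 0.0329). Without the library labelled N2 vitC replicate 3 it did (adjusted p = 6.6e-05). These differences stood beside the sbp-1 difference of 0.05.

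With vitamin C, pod-2 had 9358, 6082 and 7093 counts in wrn-1(gk99) vitC, below every untreated mutant library (log2 difference -0.80, limma adjusted p = 0.00465). In N2 vitC it had 10189, 10247 and 6948 counts, above every untreated N2 library (0.73, adjusted p = 0.00685, or 0.92 without the library labelled replicate 3). The responses differed by -1.53 on the log2 scale (adjusted p = 0.000483), and by -1.72 when the N2 vitC library labelled replicate 3 was left out. fasn-1 had 15482, 10146 and 11608 counts in wrn-1(gk99) vitC and 23653, 23592 and 10753 in N2 vitC, where the last value, from the library labelled replicate 3, lay inside the untreated N2 range.

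Upstream of SBP-1, sams-1, the S-adenosylmethionine synthase whose loss is known to activate SBP-1, averaged 15504 ± 480.1 counts in wrn-1(gk99) and 15168 ± 333 in N2 (SD, n = 3 each), with a log2 difference of 0.03 and a 95% confidence interval of -0.11 to 0.18. scp-1, the SCAP ortholog, averaged 1155 ± 25.3 counts in wrn-1(gk99) and 1046 ± 80.8 in N2, with a log2 difference of 0.15 (95% confidence interval -0.03 to 0.32). The phosphoethanolamine methyltransferase gene pmt-1, by contrast, rose by 1.29 in the mutant (limma adjusted p = 2.7e-08), together with pmt-2 (1.35) and the choline phosphotransferase gene cept-1 (1.55), all of phosphatidylcholine synthesis.

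Of the sphingolipid genes, which include known targets of NHR-49 with NHR-66, asah-1, an acid ceramidase, had 1187, 1211 and 1202 counts in wrn-1(gk99) libraries, against 391, 378 and 409 in N2 libraries. The groups were far apart (log2 difference 1.61, SE 0.33, limma adjusted p = 0.00157). sptl-2, a serine palmitoyltransferase gene at the start of sphingolipid synthesis, rose by 1.43, and gba-1, a glucocerebrosidase gene, rose by 1.15. In N2 vitC asah-1 had 258, 285 and 871 counts, the last again from the library labelled replicate 3, against 845, 905 and 861 in wrn-1(gk99) vitC. Among all 21 sphingolipid genes tested, vitamin C in wrn-1(gk99) gave 0 calls with all 12 libraries, and 1 gene rose and 7 fell without that library.

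**Figure D5:**
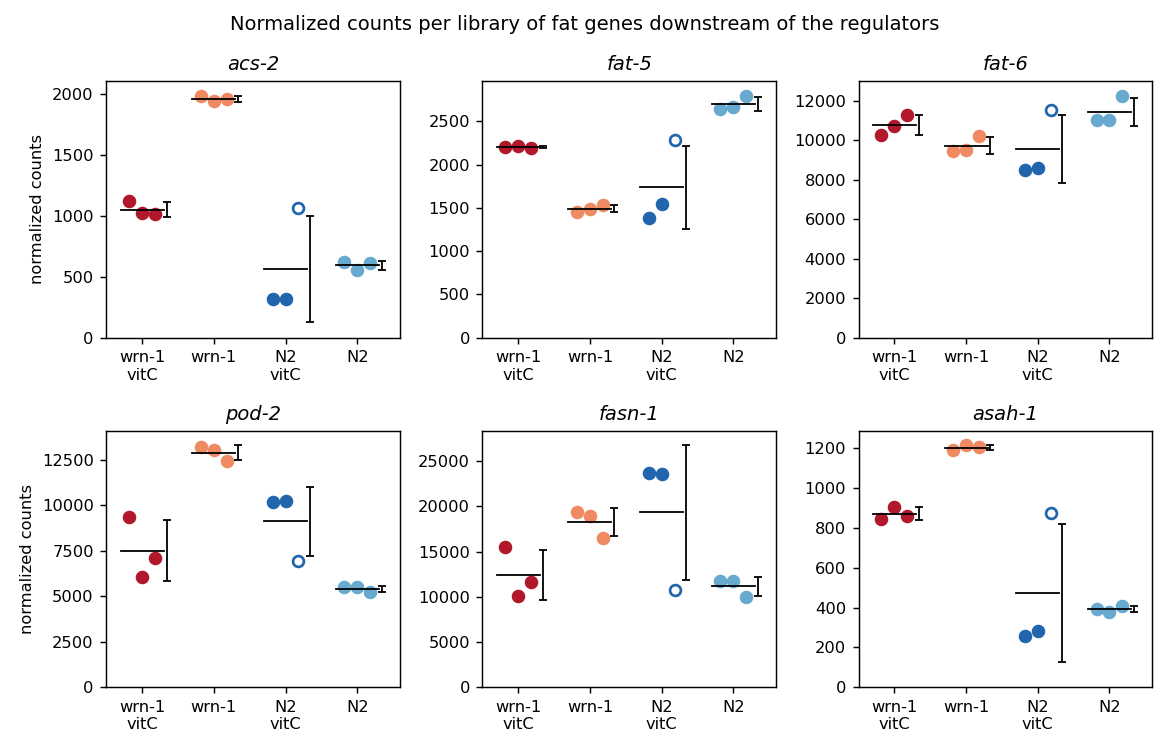
Normalized counts (y axis, starting at 0) per library of 6 genes downstream of the regulators, with group means as lines, SDs as bars (n = 3) and the library labelled N2 vitC replicate 3 open. acs-2, pod-2 and asah-1 are highest in wrn-1(gk99) and fat-5 is highest in N2, and the open point lies near the wrn-1(gk99) vitC libraries in all 6 panels.

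Under vitamin C in wrn-1(gk99), 0 of 6 desaturases rose and 1 fell, 2 of 8 elongases rose and 3 fell, 1 of 23 beta-oxidation genes rose and 5 fell, and 1 of 4 synthesis genes fell, while 868 of all genes tested rose and 608 fell. Without the odd N2 vitC library, 1 desaturase rose and 3 fell, 2 elongases rose and 5 fell, 1 beta-oxidation gene rose and 13 fell, and 2 synthesis genes fell. In the metabolic and regulator lists, the changes of at least 2-fold above that level were in elo-4, an elongase gene (1.93), and cpt-5 (1.07). Among the marker genes, 1 intestine marker and 1 epidermis and molt marker fell by that much. Of the 12 epidermis and molt markers 0 rose and 2 fell in the mutant, with a median of -0.28, and 0 rose and 6 fell without the odd N2 vitC library. In N2, 4 of 6 desaturases rose and 1 fell, and 3 of 4 synthesis genes rose and 0 fell, with medians of 0.49 and 0.72. With N2 vitC replicates 1 and 2 alone 4 desaturases rose and 2 fell and all 4 synthesis genes rose, and the medians were 0.57 and 0.96. Of 23 beta-oxidation genes 2 rose and 5 fell (3 and 9 with those 2 libraries alone), and of 8 elongases 1 rose and 1 fell (1 and 3). Of 8 NHR-49 targets 0 rose and 2 fell, with a median of -0.23, and with those 2 libraries alone 0 rose and 6 fell, with a median of -0.49. Over all genes in N2 the median was -0.03, and 755 rose and 1073 fell. The genes of the metabolic and regulator lists that passed in N2 with at least 2-fold above that level were cpt-6 (1.59, or 2.05 without the odd library), the enoyl-CoA hydratase family gene ech-9 (1.33, or 1.11) and the molting receptor gene nhr-23 (1.22, or 1.57). Among the marker genes noah-1 (1.30, or 1.79) and noah-2 (1.26, or 1.71), which encode proteins of the apical extracellular matrix, did so too. The epidermis and molt markers moved beside nhr-23, with 4 of 12 higher and 0 lower in N2 vitC and a median of 0.79. Without the odd N2 vitC library 8 were higher and 2 lower, with a median of 1.04. Their part in these differences was not tested.

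The difference between the strains in their response to vitamin C was also read for the lists. Of the 6 desaturases, fat-5 had a positive difference that passed and 4 others a negative one, and the median was -0.58. The difference of fat-6 was 0.42 and did not pass. Without the library labelled N2 vitC replicate 3 it was 0.56 and passed (limma adjusted p = 6.6e-05), and the median of the list was -0.64. Over all genes tested 1333 positive and 806 negative differences passed, and the median was 0.01. Of the 4 synthesis genes, 2 were called, both negative, and all 4 were called when the N2 vitC library labelled replicate 3 was left out. The response also differed for the elongase genes elo-9 (1.65, or 1.54 without that library) and elo-4 (1.35, or 1.14). Of the 23 beta-oxidation genes 3 had a positive and 4 a negative difference that passed (3 and 7 without that library), among them cpt-5 (1.64, or 1.49), the acyl-CoA dehydrogenase gene acdh-1 (1.02, or 0.98) and ech-9 (-1.09, or -0.86). Elsewhere in the metabolic and regulator lists it differed by at least 2-fold for pmt-1 (-1.22, or -1.18), sptl-2 (-1.16, or -0.98) and lbp-1 (-1.17, or -0.95). The same held for nhr-23 (-1.73, or -2.07) and nhr-25 (-1.25, or -1.22). In the lists already described it also held for pod-2, acly-2 (-1.13, or -1.23), fat-3 (-1.08, or -1.12) and maoc-1 (-1.03, or -0.93). Of the 27 Mediator genes 0 were called with all 12 libraries, and 2 positive and 3 negative differences passed without that library.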

How the data were processed

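The authors sequenced TruSeq libraries of total RNA, used TopHat for alignment to ce10 and HTSeq for counts per gene. The deposited signal is this count divided by the DESeq size factor of its library, as the authors made it, with 1 column per library and 0 columns left unmatched. The counting mode and strand setting were not given in the sources used here.

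Dividing by the smallest step of each library turned 100% of values into whole numbers (tolerance 0.01), the reads behind them, with a median of 20136361 per library. Tests were made on the deposited values with limma 3.58.1 (lmFit, eBayes with a trend, two-sided) in R 4.3.3, on log2(value + 1) for 14352 genes (mean of 10 or more), as a single fit over 12 libraries in 4 groups, with Benjamini-Hochberg adjustment over all genes tested. Fold changes of low genes are understated on this scale. A change of at least 2-fold also asked for a ratio of means of at least 2 or at most 0.5 (a log2 difference of at least 1 for the response) and a group mean above 145.

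The members and gene lists were chosen with earlier results of these data known. Beside the members and wrn-1, the genes named are acs-2, fat-5, fat-6, fat-7, fasn-1, pod-2, sams-1, scp-1 and asah-1, up to 4 genes per list and comparison with the largest change of at least 2-fold, and 2 genes most like each member. fmo-2 met this rule in wrn-1(gk99) vitC against N2. Names, chromosomes and exon lengths came from WBcel235, in which 14198 of the genes tested were found. The study calls the replicates biological. The labels do not say whether they were separate cultures, so p-values measure the spread between these libraries. Same-numbered wrn-1(gk99) and N2 libraries deviated together from their group means (r of 0.262, 0.164 and 0.495). Libraries of other numbers did so as strongly for N2 replicate 1 with wrn-1(gk99) replicate 2 (0.278). The same held for N2 replicate 2 with wrn-1(gk99) replicate 1 (0.173). The remaining other-numbered pairs of these groups were negative (-0.372 to -0.232). The values therefore did not pair replicates 1 and 2 by number, and any pairing by number is seen in the data only.

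Alternatives were other pseudocounts, filters, scalings, thresholds and fits, a replicate block, each library left out, and count tests of those reads. edgeR 4.0.16 called 6284 genes and DESeq2 1.42.0 called 6910 for wrn-1(gk99) against N2 where limma called 6226. On simulated data of that comparison over 14295 genes, limma recovered 47 of 50 genes changed 1.5-fold and 50 of 50 at 2, 3 and 4-fold each, with 1 false call. The simulation gave all genes the same low dispersion, changed only genes with a mean above 145 and held no odd library. It therefore checks that the fit works and does not give the power in the real data, where N2 vitC replicate 3 widens the error.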

Additional observations from a re-analysis of the deposited data

Results flagged for a closer look

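This look covered only the 6 members and acs-2, fat-5, fat-6, fat-7, fasn-1, pod-2, sams-1, scp-1 and asah-1. For 2 of these genes the response to vitamin C differed between the strains by limma's test of the interaction, with opposite signs in the 2 strains. Other genes named in the text, such as elo-9 and pmt-1, also passed that test and are given above. fat-5 had a log2 difference of 0.56 in wrn-1(gk99) and -0.67 in N2, so that the responses differed by 1.24 (SE 0.20, adjusted p = 0.000787), and every treated library lay above its untreated group in the mutant and below it in N2. pod-2 had a log2 difference of -0.80 in wrn-1(gk99) and 0.73 in N2, so that the responses differed by -1.53 (SE 0.23, adjusted p = 0.000483).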

How the results depend on the processing

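Counts of called members out of 6 changed as follows. A fit to only the groups compared called 4 for wrn-1(gk99) against N2, 0 for vitamin C in N2 and 2 for wrn-1(gk99) vitC against N2, and does not apply to the difference in response, which uses all 4 groups. An adjusted p under 0.05 gave 2 for vitamin C in N2 and 3 for wrn-1(gk99) vitC against N2. For vitamin C in N2, equal upper quartiles and DESeq2 each gave 2, and equal totals gave 2 for wrn-1(gk99) vitC against N2. Leaving out each library in turn gave 0 to 3 for wrn-1(gk99) against N2, 0 to 3 for vitamin C in N2, 0 to 3 for wrn-1(gk99) vitC against N2, 0 to 2 for wrn-1(gk99) vitC against N2 vitC and 0 to 1 for the difference in response. The call was 0 for vitamin C in wrn-1(gk99) under all alternatives. The fit with a replicate block called 2, 0, 1, 1, 0 and 0 members in the order of the comparisons in the text and changed no call. A pairing by replicate number was not seen throughout in any comparison with N2, and 6 of the 12 libraries deviated most like a library of their own number. The cause was not tested for any of these changes.

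Signs turned only for log2 differences that did not pass in the fit to 12 libraries. Equal totals put the median of all genes at 0.17 for wrn-1(gk99) against N2 and at 0.19 for wrn-1(gk99) vitC against N2. It gave 0.00043 for nhr-49 in the first and 0.080 for nhr-49 and 0.026 for mdt-15 in the second, and 0.0082 for sbp-1 under vitamin C in wrn-1(gk99). For wrn-1(gk99) vitC against N2 vitC it gave 0.071 for nhr-80 and 0.020 for nhr-66. Equal upper quartiles gave 0.00028 for that difference of nhr-80 and 0.011 for sbp-1 under vitamin C in wrn-1(gk99), for which edgeR gave 0.0054. edgeR gave 0.018 for that difference of nhr-80. With each library left out, vitamin C in wrn-1(gk99) gave -0.011 to 0.095 for nhr-66 and -0.064 to 0.046 for sbp-1, and vitamin C in N2 gave -0.044 to 0.11 for mdt-15. wrn-1(gk99) vitC against N2 gave -0.014 to 0.096 for sbp-1. wrn-1(gk99) vitC against N2 vitC gave -0.040 to 0.037 for nhr-80 and -0.018 to 0.14 for nhr-13, and the difference in response gave -0.17 to 0.0085 for nhr-49.

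With 3 replicates a group, a member that did not pass was not shown to be unchanged. The 95% confidence intervals give the uncertainty of each difference, and the smallest difference that would pass was not tested. An exact permutation test could not go below p = 0.1.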
